A study of Mus musculus with 8 samples.

Results

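Hepatoma cells with the highest expression of 7 liver-secreted protein genes were examined in tumours of Hepa1-6, a mouse hepatoma cell line. A hepatoma cell was one whose mean deposited value of Krt8, Afp and Alb was at least 1 and whose mean of the immune genes Cd3g, Trbc2, Tyrobp and Fcer1g was below 0.5. The members were chosen by the mean of Fabp1, Apoa2, Apoa1, Serpina1b, Apoh, Ahsg and Fga, as the top 15% of the hepatoma cells of each set of cells. There were 5176 members among 34499 hepatoma cells and 53528 cells in all, so that 29323 hepatoma cells remained for comparison. Members were 9.67% of all cells. All values of the 7 genes that chose the members are therefore descriptions of the choice, and every other gene was read in the same cells.

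The tumours came from 4 groups, WT or Soat1-edited Hepa1-6 cells in animals given intraperitoneal PBS or PD1 antibody, and each group had a cDNA and an oligo entry. The edited cells are named Soat1KO in the titles and Soat1 knockdown in the genotype field. Soat1 encodes an enzyme that esterifies cholesterol. All cells were profiled by droplet 3′ single-cell RNA sequencing and deposited as 1 table of 2000 genes, in which the last number of each cell name divides the cells into 6 sets. Nothing ties these sets to the 4 groups, so no genotype or treatment comparison was possible, the table was treated as 1 sample, and the sets stand as unassigned samples with per-set values and no test. Neither the mice, the implantation site, the number of animals nor whether the edited cells were 1 clone is given in the sources used here.

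The sets were not alike. Hepatoma cells were 48.4% of set 4 and 49.4% of set 6, against 66.3% to 77.7% of the other sets, and the other hepatoma cells of sets 4 and 6 had higher values of H2-K1 and Tmsb4x, 2 genes abundant in immune cells. The sets held 1093, 753, 1245, 566, 863 and 656 members in the order of their numbers. UMI counts could be recovered for set 1 only, where members had a median of 18354 UMIs and other hepatoma cells 14683.5. In sets 2 to 6, 100% of the cells held values below 0, the mark of a further step that no label records. Cell names are running numbers, 12741 of which occur in more than 1 set, so sharing of cell barcodes between libraries could not be counted.

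Hepatocytes make most of the proteins of blood plasma, among them albumin, the apolipoproteins of lipoprotein particles, clotting factors, protease inhibitors of the serpin family and the acute phase proteins. These genes share control by liver-enriched transcription factors, including HNF4A, C/EBPα and FOXA proteins. Hepatomas keep this programme to varying degrees, often together with fetal liver genes such as Afp.

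Of the 7 choosing genes, Fabp1 encodes a fatty acid binding protein of the hepatocyte cytoplasm, Apoa1 and Apoa2 the main proteins of high density lipoprotein, and Serpina1b an alpha-1 antitrypsin. Apoh encodes beta-2-glycoprotein, Ahsg fetuin-A and Fga the alpha chain of fibrinogen. The bases before the starts of 4 of them are shown because they stand for the 2 patterns described here: Fabp1 and Serpina1b for genes whose RNA was concentrated in few members, Ahsg and Fga for genes detected in nearly all. Each line gives the 250 bases before the RefSeq start of transcription on the gene's own strand, 5′ to 3′, in build GRCm38.p6. Capitals mark every match, on either strand, to CAAAGNNCA (an HNF4 core) or TTGCNNAA (a C/EBP core).
Fabp1, chr6:71199629-71199878, plus strand: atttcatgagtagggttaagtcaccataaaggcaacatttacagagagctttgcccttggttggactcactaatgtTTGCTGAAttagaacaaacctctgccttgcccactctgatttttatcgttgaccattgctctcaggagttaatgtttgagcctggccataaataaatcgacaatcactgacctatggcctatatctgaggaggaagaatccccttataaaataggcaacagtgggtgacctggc
Serpina1b, chr12:103738190-103738439, minus strand: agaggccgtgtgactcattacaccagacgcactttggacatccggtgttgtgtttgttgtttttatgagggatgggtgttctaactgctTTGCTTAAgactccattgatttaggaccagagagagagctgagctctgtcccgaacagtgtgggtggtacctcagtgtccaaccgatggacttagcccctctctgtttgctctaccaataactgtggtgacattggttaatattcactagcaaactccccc
Ahsg, chr16:22891765-22892014, plus strand: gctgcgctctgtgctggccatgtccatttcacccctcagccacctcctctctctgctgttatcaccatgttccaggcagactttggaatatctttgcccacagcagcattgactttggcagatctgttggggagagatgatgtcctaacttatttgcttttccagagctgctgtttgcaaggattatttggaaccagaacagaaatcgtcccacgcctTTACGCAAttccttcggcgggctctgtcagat
Fga, chr3:83025903-83026152, plus strand: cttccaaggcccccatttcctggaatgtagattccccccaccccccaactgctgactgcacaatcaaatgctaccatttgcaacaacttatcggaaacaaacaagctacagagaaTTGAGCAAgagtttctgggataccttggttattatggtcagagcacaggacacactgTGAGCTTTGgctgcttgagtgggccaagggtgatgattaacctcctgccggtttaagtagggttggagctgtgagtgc
Fabp1 held a C/EBP match whose first base lay at position -174 from the start, Serpina1b held a C/EBP match at -161 and Ahsg a C/EBP match at -32. Fga held a match to each of the 2 cores, the HNF4 core at -78 and the C/EBP core at -135. No base lay in more than 1 match.

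The same search was run over windows of 300 bases, from 250 before to 50 after each start, for the 7 choosing genes and the 15 genes with the highest median difference from other hepatoma cells. Of these 22 genes, 17 had a window in the RefSeq table, and 4 of the 17 (23.5%) held CAAAGNNCA, against 7.27% of all 27025 genes and 9.66% of the 1408 matched genes of the deposited table. TTGCNNAA was held by 9 of the 17 (52.9%), against 12.2% and 15.8%. Of the 10 genes with the lowest median difference, 5 had a window. Of these, 1 (20%) held CAAAGNNCA and 1 (20%) held TTGCNNAA. For CAAAGNNCA the shares of the highest and lowest genes were thus close, and all these counts are small. A match is a run of letters and does not show that a factor binds there.

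Members were chosen chiefly by Ahsg, Fga and Apoa1. Over the 6 sets, Ahsg gave a median of 33.7% of a set's summed member score, Fga 31.1% and Apoa1 16.4%, while Apoh gave 7.76%, Fabp1 4.45%, Serpina1b 3.71% and Apoa2 3.27%. In 80.2% to 87.4% of the members of a set, Ahsg and Fga together made up over 50% of the score. The score had no gap at the threshold. The lowest member of a set scored 0.705 to 0.784 and the highest cell left out scored 0.705 to 0.783, while the median was 0.931 to 1.05 in members and 0.269 to 0.290 in other hepatoma cells.

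In set 1, whose values are natural logs of 1 plus the UMIs per 10000 of a cell, the UMIs of a class of cells were summed and divided by the summed totals to give UMIs per 1000000 UMIs (CPM). Ahsg stood at 1951 CPM in members and 206 CPM in other hepatoma cells, 9.47 times higher (95% exact Poisson interval 9.33 to 9.61), and was detected in 99.5% of members. Fga stood at 1724 CPM and 177 CPM, and was detected in 98.8% of members. Fabp1 stood at 353 CPM in members and 7.47 CPM in other hepatoma cells, a ratio of 47.2 (44.2 to 50.5), yet it was detected in 32.6% of members. The pattern was thus of nearly every member carrying Ahsg and Fga and a minority carrying Fabp1. Intervals are 95% intervals throughout and include no error other than that of counting UMIs or cells.

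Apoa1 had 811 CPM in members and 38.1 CPM in other hepatoma cells. Apoa2 had 265 CPM and 9.12 CPM, Serpina1b had 194 CPM and 8.58 CPM, and Apoh had 152 CPM and 5.81 CPM. In detection, Apoa1 was found in 75% of members, Apoh in 48.9%, Apoa2 in 33.3% and Serpina1b in 32.7%, before any correction for depth. Serpina1b has near-identical sister genes, so reads may be split among Serpina1a to Serpina1e and its own value is uncertain.

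Free RNA in droplets can put a UMI into a cell that does not express the gene, so shares of cells with a UMI were set beside 517 cells of set 1 that had immune genes and few hepatoma genes (median 2673 UMIs). Before thinning, a Fabp1 UMI was found in 2.13% of these cells and in 13% of other hepatoma cells. After each cell was thinned to 5000 UMIs, which left 1029 of 1093 members, 5156 of 6192 other hepatoma cells and 126 immune-marker cells, Fabp1 was detected in 18.6% of members, 3.37% of other hepatoma cells and 3.17% of immune-marker cells. At equal depth the Fabp1 shares of other hepatoma cells and immune-marker cells were thus close. The background share rests on only 126 cells, so its counting error is wide. Whether other hepatoma cells carried Fabp1 beyond the background was not tested. Ahsg was detected in 98.5%, 51.8% and 19.8% of the same classes. Its share in other hepatoma cells was thus above that in immune-marker cells, and the part of free RNA in it was not tested either.

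The mean deposited value of Fabp1 in members was 0.42, 0.51, 0.36, 0.25, 0.35 and 0.30 in sets 1 to 6, and 0.05 to 0.06 in other hepatoma cells. Apoa2 had 0.34, 0.38, 0.26, 0.23, 0.27 and 0.21, against 0.06 to 0.07. Sets 1 and 2 were the highest for both genes. Only set 1 is known to hold plain log values, so its rank among the sets, for any gene given here, is a description. Ahsg varied little, with 2.74, 2.76, 2.68, 2.79, 2.74 and 2.74 in members and 0.83 to 0.92 in other hepatoma cells. Apoa1 was lowest in set 1, with 1.14, 1.37, 1.31, 1.40, 1.34 and 1.42 in members and 0.23 to 0.25 in other hepatoma cells.

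Each choosing gene was also read with members chosen by the other 6 genes, which removes its own part in the choice. Fabp1 was then 43.0 times higher in set 1 (40.3 to 45.8), Apoa2 27.8 times, Apoh 23 times, Serpina1b 20.2 times and Apoa1 17.8 times. The ratios of Ahsg and Fga were 6.98 and 7.07. Between 84.8% (without Fga) and 98.1% (without Fabp1) of the members stayed members. The order of the ratios was led by Fabp1 with and without its own part in the choice.

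**Figure D1:**
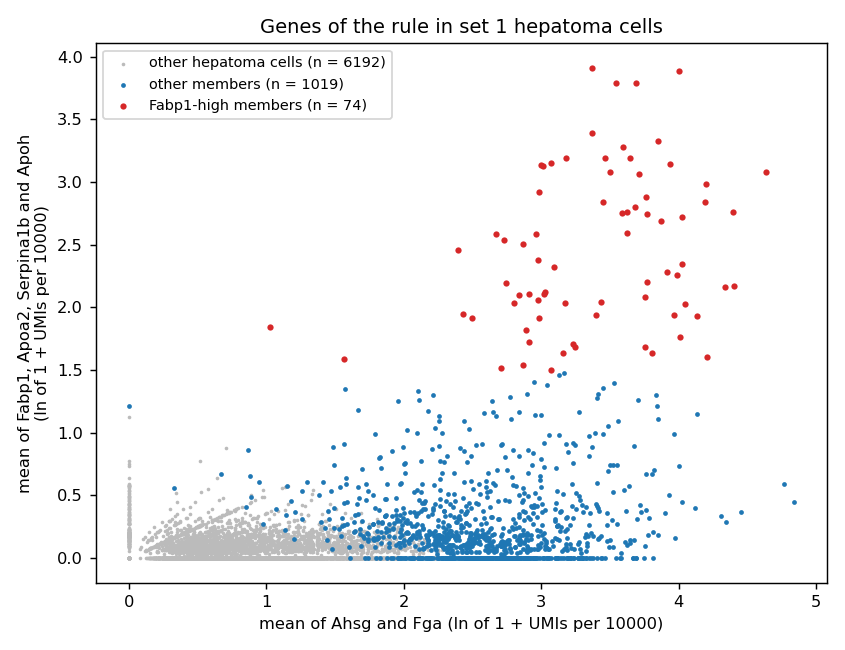
Each point is a hepatoma cell of set 1, with the mean of Ahsg and Fga on the x axis and the mean of Fabp1, Apoa2, Serpina1b and Apoh on the y axis, both as natural log of 1 plus UMIs per 10000. Most members (blue) spread along the x axis near the bottom, and 74 Fabp1-high members (red) lie above 1.5 on the y axis.

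The RNA of Fabp1 and Apoa2 was concentrated in few members. In set 1 the 10% of members with the most Fabp1 held 95.7% of the members' Fabp1 UMIs, and the corresponding figures were 95.5% for Apoa2, 92.9% for Serpina1b, 72.8% for Apoh, 77.6% for Apoa1, 47.9% for Fga and 42.2% for Ahsg. To describe these cells, members whose mean of Fabp1, Apoa2, Serpina1b and Apoh exceeded 1.5 were set apart as Fabp1-high cells, a threshold set after the values were seen. They were 248 of the 5176 members (4.79%, exact binomial interval 4.23% to 5.41%). In the order of the sets they numbered 74, 55, 46, 19, 37 and 17, or 6.77%, 7.30%, 3.69%, 3.36%, 4.29% and 2.59% of members. Sets 1 and 2 held the most and set 6 the fewest. The threshold of 1.5 was the same in every set, but only set 1 is known to hold plain log values. It may thus not mean the same in set 1 as elsewhere, and this order of the sets is a description.

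The 4 genes that set these cells apart are high in them by the choice, so their shares and the ratios without these cells are descriptions. Fabp1-high cells of set 1 held 92.0% of the members' Apoa2 UMIs, 80.9% of their Fabp1 UMIs, 69.6% of Serpina1b, 53.1% of Apoh and, of the genes not used to set them apart, 51.6% of Apoa1, 21.1% of Fga and 20.7% of Ahsg. They had a median of 29074 UMIs, against 17929 in the other members, and 37 of the 74 came from the deepest of 4 equal depth classes of hepatoma cells. Without them, Fabp1 was 9.99 times higher in members than in other hepatoma cells (9.23 to 10.8) and Apoa2 was 2.58 times higher (2.33 to 2.86). For Ahsg the ratio without them was 8.29 and for Fga 8.52. The Fabp1 ratio of all members differed between these depth classes: it ran from 16.9 in the shallowest to 66.3 in the deepest, and for Ahsg from 6.55 to 10.7. Depth and the uneven spread of Fabp1-high cells over the classes go together here, and the part of each was not tested.

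Pairs of choosing genes followed each other unequally from cell to cell, which is given as a description over cells that share library and depth. Among all hepatoma cells the Pearson correlation of deposited values was 0.545 to 0.668 over the sets for Fabp1 and Apoa2 (median 0.615) and 0.590 to 0.670 for Ahsg and Fga (median 0.633). Across these pairs it was lower, with a median of 0.261 for Fabp1 and Fga and 0.214 for Apoa2 and Fga. Within members, where the choice by the sum of these genes itself alters correlations, Fabp1 and Apoa2 had a median of 0.727 and Serpina1b and Fga 0.046.

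Outside the 7 choosing genes, 1993 genes were compared. In set 1, 282 of them (14.1%) were at least 1.5-fold higher in members by summed UMIs, with 1 CPM added to both values, and 565 (28.3%) were at least 1.5-fold lower. Mean deposited values differed by over 0.1 in the same direction in all 6 sets for 211 genes that were higher (10.6%) and 42 that were lower (2.11%). The median gene stood at -0.23 on the log2 scale of the set 1 ratio. With the Fabp1-high cells left out, the 4 counts were 249, 555, 198 and 42.

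The 15 genes with the highest median difference were Fgg, Kng1, Fgb, Fgl1, Ambp, Pzp, Serpinf2, Igfbp1, Afp, Hpx, Gc, Apoc1, Alb, Hp and Trf, all of which encode secreted plasma proteins. Fgg, the gamma chain of fibrinogen, had mean values of 3.19, 3.21, 3.20, 3.20, 3.28 and 3.15 in members and 1.45, 1.5, 1.44, 1.36, 1.43 and 1.38 in other hepatoma cells. Kng1, the precursor of bradykinin, had 2.17, 2.20, 2.15, 2.38, 2.27 and 2.21 against 0.73, 0.77, 0.72, 0.75, 0.71 and 0.73. For both genes the range of the member means did not overlap that of the other cells, and the members' spread over sets was a small part of the difference. Both were picked for a high difference of the same sign in every set, so this is a description of the pick. How many of all genes had ranges apart was not counted. In set 1 UMIs, Fgg was 6.00 times higher (5.94 to 6.06), Kng1 7.17 times, Pzp (an alpha-2-macroglobulin family inhibitor) 6.34 times, and Hp (haptoglobin) 7.07 times. Kng1 has a close copy, Kng2, so its count is uncertain.

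Alb and Afp are among the genes whose mean defined a hepatoma cell, so their values in both classes are in part fixed by that choice. Both genes were higher in members: Alb had 5788 CPM against 3026 CPM, a ratio of 1.91 (1.90 to 1.92), and Afp 8447 CPM against 4215 CPM, a ratio of 2.00 (1.99 to 2.01). Krt8, the third defining gene and a keratin of simple epithelia, differed little, at 1205 CPM and 1139 CPM. The members therefore combined higher albumin with higher alpha-fetoprotein, the main fetal counterpart of albumin.

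**Figure D2:**
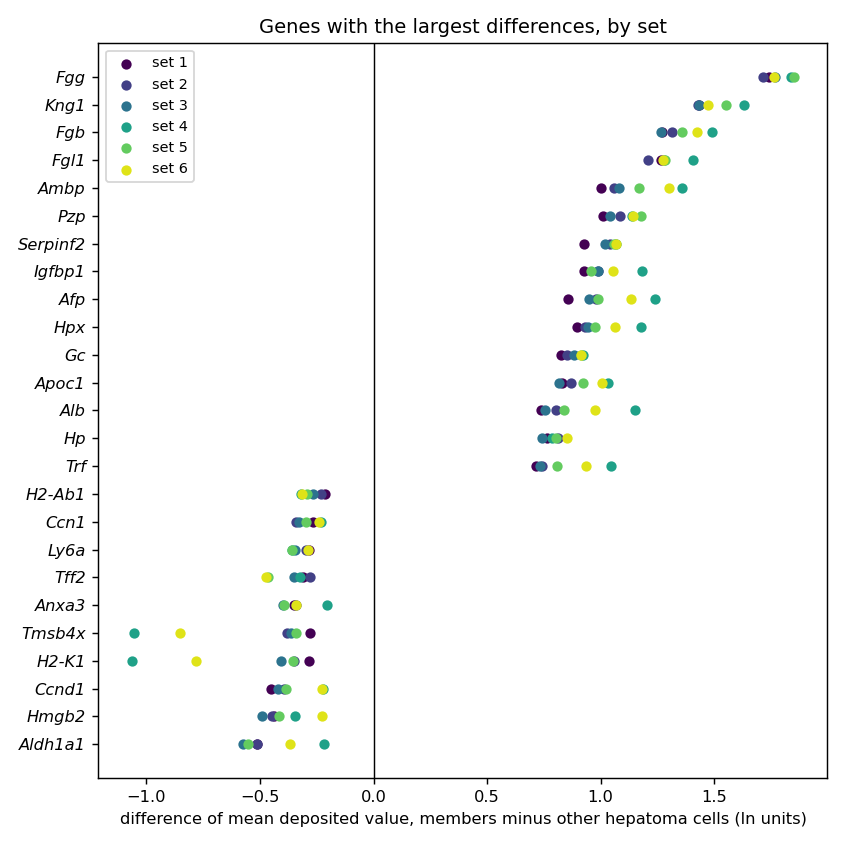
For the 15 genes with the highest and the 10 with the lowest median difference, points give the difference of mean deposited value (natural log units) between members and other hepatoma cells in each of the 6 sets. The highest genes lie between 0.72 and 1.85 in every set, Fgg furthest to the right, and Tmsb4x and H2-K1 lie between -1.07 and -0.78 in sets 4 and 6, apart from the other sets.

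Plasma protein lists were higher nearly throughout. For comparison, 14.1% of all 1993 genes read were at least 1.5-fold higher in set 1 and 28.3% lower. By over 0.1 in all 6 sets, 10.6% were higher and 2.11% lower. Of 15 acute phase genes, 14 were at least 1.5-fold higher in set 1 and none lower, and 8 were higher by over 0.1 in all 6 sets. The list's median log2 ratio was 2.29, beside -0.23 over all genes. All 11 coagulation genes were higher in set 1 (median 2.41), and 6 were so in all 6 sets. F2, which encodes prothrombin, had 241 CPM against 54.1 CPM (4.45-fold), and Plg, plasminogen, had 36.5 CPM against 1.34 CPM.

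Among 13 apolipoprotein and lipoprotein genes, 11 were higher in set 1, 8 in all 6 sets and none lower (median 1.5). Over all genes these shares were 14.1% higher and 28.3% lower in set 1, and 10.6% higher in all 6 sets. Apoe, a ligand of lipoprotein receptors and abundant in all hepatoma cells, had 4268 CPM in members and 2810 CPM in others (1.52-fold). Apoc1 was 3.85 times higher, Apoc2, the activator of lipoprotein lipase, 2.53 times and Apom 7.96 times. Apoc3, an inhibitor of that lipase, had 15.4 CPM against 0.589 CPM. Of 17 serpins, 16 were higher and 1, Serpinf1, lower in set 1 (median 2.20), and 6 were higher by over 0.1 in all 6 sets. Any near-identical sister genes of the choosing gene Serpina1b in this list may carry the choice into these values. Serpinc1, antithrombin, had 41.4 CPM against 1.72 CPM.

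All 5 complement genes were higher in set 1 (median 1.09) and 3 in all 6 sets, beside 14.1% and 10.6% over all genes. Among them were C4b at 1.95-fold and Cfb, factor B of the alternative pathway, at 1.75-fold. Of 12 plasma carriers and binding proteins, 9 were higher in set 1, 9 were higher by over 0.1 in all 6 sets, and 1, Igf1, was lower in set 1 (median 0.88). Trf, transferrin, was 2.00 times higher, Igfbp1 2.25 times and Selenop, the selenium carrier, 1.76 times. Ttr, transthyretin, was 1.52 times higher, with mean values of 1.45 to 1.58 in members and 0.68 to 1.01 in other hepatoma cells.

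The label of hepatocyte-like cells rests on markers that are themselves choosing genes, so it was read against other hepatocyte genes. Of 24 hepatocyte enzyme genes, 15 were higher in set 1, 3 were lower and 10 were higher in all 6 sets (median 1.42). The corresponding shares over all genes were 14.1%, 28.3% and 10.6%. Adh1, an alcohol dehydrogenase, had 53.9 CPM against 2.57 CPM, and Ces1c, a carboxylesterase, 60.4 CPM against 6.21 CPM. Some markers of mature metabolism were low in both classes. Cps1, the entry enzyme of the urea cycle, had 5.57 CPM in members and 1.04 CPM in other hepatoma cells, and a UMI in 3.66% and 2.10% of cells, beside 0.387% of the shallower immune-marker cells. Cyp3a11, a cytochrome P450, had 13.5 CPM against 0.388 CPM and a UMI in 5.58% and 0.791% of cells, beside 0.387%. After thinning, the shares of members and other hepatoma cells were 1.46% and 0.427% for Cps1 and 2.43% and 0.194% for Cyp3a11. Pck1, which controls gluconeogenesis, had 3.16 CPM against 0.101 CPM. Arg1, Cyp1a2 and Aldh1a1 were lower, Aldh1a1 with 123 CPM against 390 CPM. With the Fabp1-high cells left out, the list's median was 0.45. The members are therefore named here by their plasma protein genes and not by hepatocyte metabolism.

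Of the liver transcription factor list 4 genes could be read, and all 4 were higher in set 1 and in all 6 sets (median 0.87). Over all genes the shares were 14.1% and 10.6%. Hnf4a, a nuclear receptor that controls much of hepatocyte expression, had mean values of 0.41, 0.46, 0.45, 0.43, 0.45 and 0.45 in members and 0.23 to 0.27 in other hepatoma cells. Cebpa, which encodes C/EBPα, had 0.61 to 0.63 against 0.30 to 0.34. For neither gene did the ranges overlap, but how many of all genes had ranges apart was not counted. By any size, 477 of all 1993 genes had a higher mean value in members in all 6 sets. The set 1 ratios were 1.57 for Hnf4a (1.49 to 1.65), 2.00 for Cebpa, 1.69 for Nr5a2 and 2.05 for Nr0b2, a repressor of bile acid synthesis, so the 4 genes lay between 0.64 and 0.99 on the log2 scale, below the medians of the acute phase and coagulation lists.

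Besides the choosing gene Fabp1, genes of lipid metabolism were read. Of 11 fatty acid genes, 6 were higher and 1, Cd36, lower in set 1 (median 0.70), beside 14.1% and 28.3% over all genes. Fabp5, a fatty acid binding protein present in nearly every hepatoma cell, was 1.63 times higher. Of 7 transporters, 4 were higher in set 1 and only Abcb4, the phospholipid exporter of bile, in all 6 sets. Its values were 23.2 CPM against 5.97 CPM. That 1 of 7 in all 6 sets is near the 10.6% over all genes. The 6 sterol synthesis genes did not reach 1.5-fold in set 1 (median 0.23), although 4 had mean values higher by over 0.1 in all 6 sets. The mitochondrial genes behaved in the same way, with none of 9 past 1.5-fold (median 0.03) and 5 past the difference in all 6 sets. On these lists the scale of summed UMIs and the scale of mean log values gave different answers, and for Hmgcs1, Acsl1, mt-Nd1 and mt-Co1 they differed in sign.

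**Figure D3:**
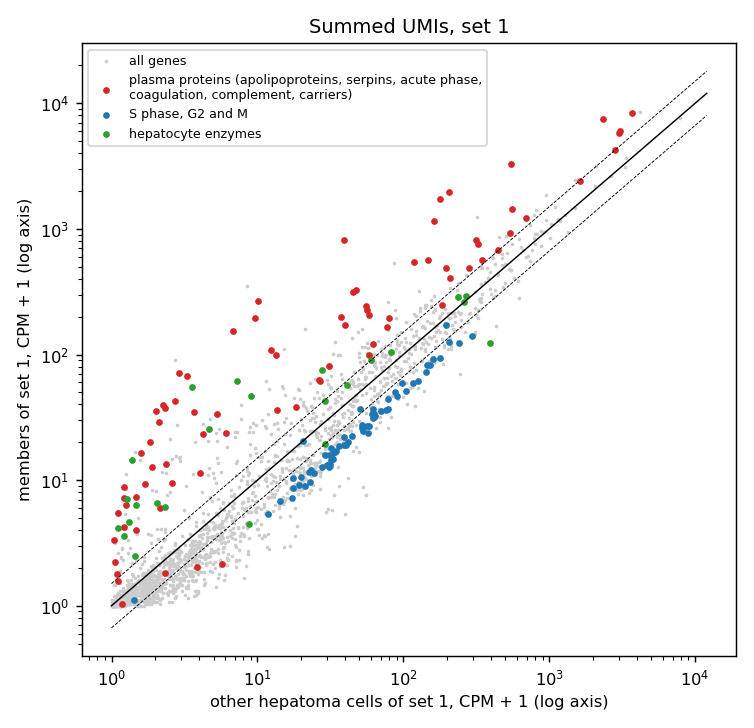
Each point is a gene, with CPM plus 1 in other hepatoma cells of set 1 on the x axis and in members on the y axis, both log axes, and dashed lines at 1.5-fold. Plasma protein genes (red, including 6 choosing genes) lie mostly above the upper dashed line and hepatocyte enzymes (green) mostly on or above the diagonal. Below the lower dashed line lie 60 of the 64 S phase, G2 and M genes (blue), beside 28.3% of all genes outside the choice.

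Fabp1-high cells were compared with the other members. In set 1, 369 genes (18.5%) were at least 1.5-fold higher in them and 329 (16.5%) lower, and in all 6 sets 168 genes (8.43%) were higher by over 0.1 and 74 (3.71%) lower. Cyp2a4, a steroid hydroxylase of the cytochrome P450 family, had 845 CPM in the 74 Fabp1-high cells and 9.74 CPM in the other 1019 members, 86.7 times higher (75.7 to 99.7). Its mean value was higher in all 6 sets, by 0.59 to 1.41. Serpinc1 had 339 CPM against 10.2 CPM, Itih3, a hyaluronan-binding plasma protein, 278 CPM against 9.16 CPM, and F10, clotting factor X, 261 CPM against 9.74 CPM. Cyp2a4, Serpinc1, Itih3 and F10 were chosen after their values were seen.

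Some hepatocyte enzymes that were low in members as a whole were higher here per UMI. Cyp3a11 had 128 CPM in Fabp1-high cells and 1.5 CPM in other members, a ratio of 85.4 (60.4 to 124). Cps1 had 42.4 CPM against 1.71 CPM (17.2 to 36.5 times), and Pck1, with 78 UMIs against 6, stood 54.4 to 348 times higher by its counting interval. Adh1 had 295 CPM against 28.6 CPM. Apom had 541 CPM against 51.6 CPM. These are summed UMIs of set 1 only, and how they spread over its 74 Fabp1-high cells is not given here. Over lists, the median log2 ratio of Fabp1-high cells to other members was 3.65 for serpins, 2.26 for coagulation, 1.5 for hepatocyte enzymes, 1.43 for transporters and 1.42 for apolipoproteins, beside -0.07 over all genes. Serpina1b helped to set these cells apart and its near-identical sister genes may share its reads. Any of them in the serpin list may thus carry the choice into its median. The median was lower for acute phase genes (1.15), complement (0.73) and plasma carriers (0.42). Against other hepatoma cells, those 3 lists had medians of 1.59, 0.98 and 0.78 once the Fabp1-high cells were left out of the members.

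Fabp1-high cells did not lack the hepatoma genes. Afp had 12132 CPM in them and 8060 CPM in other members, higher in all 6 sets by 0.16 to 0.51, and Igf2, a fetal growth factor, had 176 CPM against 11.3 CPM. Biliary and progenitor genes were lower: Spp1, osteopontin, had 90.0 CPM against 287 CPM, Sox9 98.3 CPM against 223 CPM, Krt7 105 CPM against 219 CPM and Krt19 55.5 CPM against 116 CPM. Each of these 4 had a lower mean value in all 6 sets. Of the 8 genes of the list, 6 were at least 1.5-fold lower in set 1, beside 16.5% over all genes, and none was higher. Bnip3, a hypoxia gene that acts in mitochondrial turnover, had 293 CPM against 612 CPM.

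**Figure D4:**
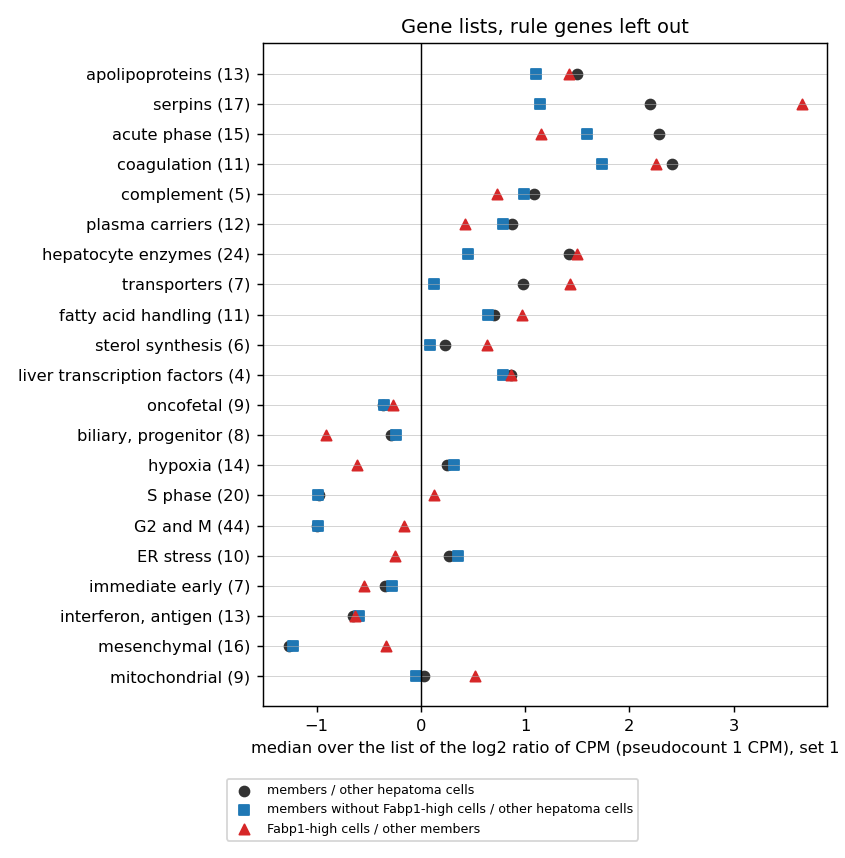
For each gene list (number of genes read in brackets), the x axis gives the median log2 ratio of CPM in set 1 with 1 CPM added. Black circles compare members with other hepatoma cells, blue squares the same without Fabp1-high cells, and red triangles Fabp1-high cells with other members. Serpins have the highest triangle (3.65), into which sister genes of Serpina1b may carry the choice. S phase (-0.97) and G2 and M (-1.0) circles lie left of 0 with and without the Fabp1-high cells.

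Proliferation genes were lower in members. Of 20 S phase genes, 18 were at least 1.5-fold lower in set 1 (median -0.97) and none higher. Of 44 G2 and M genes 42 were lower (median -1.0), beside 28.3% of all genes, whose median was -0.23. None of the 64 was lower by over 0.1 in all 6 sets, beside 2.11% of all genes. The median difference of the G2 and M genes ran from -0.09 in set 5 to -0.01 in set 6. Mki67, the proliferation antigen Ki-67, had mean values of 0.25, 0.28, 0.26, 0.21, 0.29 and 0.30 in members and 0.44, 0.43, 0.42, 0.29, 0.46 and 0.35 in other hepatoma cells. Top2a, the topoisomerase of replicating chromosomes, had 0.44, 0.46, 0.42, 0.39, 0.49 and 0.55 against 0.66, 0.68, 0.66, 0.47, 0.72 and 0.57. Set 6 was the nearest to equal for both. In set 1 UMIs, Mki67 stood at 60.8 CPM against 125 CPM, and after thinning was detected in 15.1% of members and 27.7% of other hepatoma cells. Ccnd1, the G1 cyclin, and Hmgb2, a chromatin protein of dividing cells, were among the 10 lowest genes, at 168 CPM against 431 CPM and 283 CPM against 617 CPM. In the shallowest depth class of set 1 the medians were -0.49 for S phase and -0.41 for G2 and M, and Top2a stood at 0.918-fold (0.756 to 1.11). In list medians of set 1 UMIs, Fabp1-high cells differed little from other members, at 0.13 for S phase and -0.16 for G2 and M.

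Counted as cells, 5.06% to 10.7% of the members of a set were in the top 15% of hepatoma cells for the S phase mean, against 15.8% to 16.8% of other hepatoma cells. For G2 and M the share was 5.94% to 14.6% against 15.1% to 16.6%, with set 6 at 14.6%. Of the Fabp1-high cells, which are few in each set, 7.27% to 17.4% were in the S phase top 15%. That was above the share of members in each set. For G2 and M their share was 0% to 29.4%, below that of members in sets 2 and 5 and above it in the others. The share in the top 15% for Ppbp, Anxa1 and Tff2, genes that mark another set of hepatoma cells, was 0.579% to 2.25% of members and 17.3% to 17.6% of other cells. Anxa1, which encodes an annexin, stood at 7.80 CPM against 51.6 CPM, and Tff2, a secreted trefoil peptide, at 68.8 CPM against 242 CPM. Of the 5 groups of genes compared by share, that of Ppbp, Anxa1 and Tff2 thus overlapped least with the members.

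The state of Ndrg1, Bnip3, Slc2a1 and Ero1l, genes induced by low oxygen, was found in 15% to 17.7% of members and 14.5% to 15% of other hepatoma cells. In sets 1 and 3 the exact binomial interval of the members' share lay above the share of other hepatoma cells. In sets 2, 4, 5 and 6 the interval held that share, and in set 2 both shares were 15%. Among Fabp1-high cells the share in this state was 0% to 10.5%, below the share of members in each set. Ndrg1 was 1.74 times higher in members, Selenbp1, a selenium-binding protein, 3.37 times, and Slc2a1, the glucose transporter, 1.06 times. Of 14 hypoxia genes, 2 were higher by 1.5-fold in set 1, near the 14.1% over all genes, and 7 had higher mean values in all 6 sets, beside 10.6% over all genes. The list's median log2 ratio was 0.25 in set 1, and -0.03 in the second shallowest depth class. The state of Slco1b2, Wif1 and Spp2 was found in 16.7%, 13%, 18.0%, 30.0%, 20.9% and 29.7% of members in sets 1 to 6, against 12.4% to 15.3% of other hepatoma cells. Sets 4 and 6 stood above the other 4, and set 2 lay below its own other cells (15.3%).

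**Figure D5:**
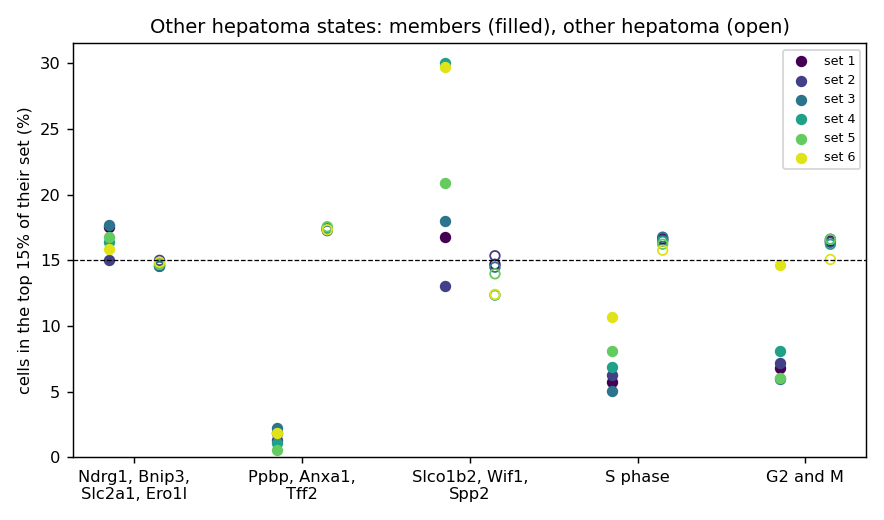
The y axis gives the percent of members (filled) and of other hepatoma cells (open) that were in the top 15% of the hepatoma cells of their set for each other group of genes, with 1 point per set. Members lie between 0.579% and 2.25% for Ppbp, Anxa1 and Tff2, and reach 30.0% in set 4 for Slco1b2, Wif1 and Spp2.

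Mesenchymal and matrix genes were lower in members in 14 of 16 cases in set 1 (median -1.27), beside 28.3% of all genes (median -0.23). With 3183 CPM against 2092 CPM, 1 was higher, Fn1, the gene of fibronectin, which hepatocytes also secrete. Col1a2, a collagen chain, had 6.59 CPM against 54.3 CPM. Its ratio was 0.209, 0.0435 and 0.0522 in the 3 shallower of the 4 depth classes, but 0.768 (0.595 to 0.979) in the deepest, where 4.87 CPM stood against 6.34 CPM and 1.5-fold was not reached. The list's median was -2.23 in the shallowest class and -0.32 in the deepest. The summed CPM of 5 fibroblast markers was 22.1 in members and 157 in other hepatoma cells. None of the 5 was at 0 in members, and their part in the result was not tested.

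Interferon and antigen presentation genes were lower in 8 of 13 cases in set 1 and 4 of 13 in all 6 sets (median -0.66). Over all genes the shares were 28.3% and 2.11% (median -0.23). H2-Ab1, an MHC class II chain, had 131 CPM against 207 CPM, and Cxcl10, an interferon-induced chemokine, 110 CPM against 212 CPM, with a ratio from 0.37 to 0.877 over the depth classes. H2-K1, an MHC class I chain, had mean values of 0.36, 0.37, 0.34, 0.36, 0.33 and 0.39 in members and 0.64, 0.72, 0.74, 1.43, 0.69 and 1.18 in other hepatoma cells. Tmsb4x, thymosin beta-4, had 0.76 to 0.82 in members and reached 1.81 and 1.62 in the other cells of sets 4 and 6. The members were alike across sets, and the other cells differed. Within the deepest of the 4 depth classes of set 1 the ratio was 0.965 for H2-K1 (0.885 to 1.05) and 0.975 for Tmsb4x (0.928 to 1.02), and within the shallowest it was 0.314 and 0.219. In the deepest cells neither gene thus differed beyond counting error.

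Macrophage and neutrophil markers were also lower in members, while T cell markers were nearly equal. Of 9 macrophage and monocyte markers 6 could be read, and all 6 were lower in members in all 6 sets. By any size, 883 of all 1993 genes were so. The 6 markers summed to 50.2 CPM in members, 120 CPM in other hepatoma cells and 1280 CPM in immune-marker cells. T cell markers summed to 28.1 CPM, 31.6 CPM and 4157 CPM, and of the 6 read, 3 were lower and 1 higher in all 6 sets. Neutrophil markers summed to 21.7 CPM, 30.4 CPM and 722 CPM. Tyrobp, Fcer1g, Cd3g and Trbc2 are among these markers and also chose the hepatoma and immune-marker cells, so those sums are in part fixed by the choice. No marker that could be read was at 0 in members, and the part of other cells' RNA in the lower genes was not tested. Scrublet called 4 of 1093 members as doublets (0.366%), 54 of 6192 other hepatoma cells (0.872%) and none of the 74 Fabp1-high cells.

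Among biliary and progenitor genes, 1 of 8 was higher and 2 were lower in set 1, near the 14.1% and 28.3% over all genes. Krt19, a bile duct keratin, had 110 CPM against 200 CPM and was lower in all 6 sets, while Spp1 had 269 CPM against 153 CPM and was higher in all 6. Spp1 was below other hepatoma cells in the shallowest depth class of set 1, at 0.795-fold (0.670 to 0.938), and above them in the other 3. Sox9, a progenitor transcription factor, was at 0.961-fold. Of 9 oncofetal genes 2 were higher, Afp and Igf2, and 4 lower, beside the same 14.1% and 28.3%. Such counts over few genes are given as descriptions. Igf2 had 27.0 CPM against 3.25 CPM, and Igf2bp1, an RNA-binding protein of fetal tissues, 23.6 CPM against 41.9 CPM.

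Depth differed between the classes. Members made up 8.90% of the shallowest of 4 depth classes of set 1 hepatoma cells, whose totals were 1001 to 7840 UMIs, and 16.6%, 16.9% and 17.6% of the others. The 2000 genes of the table took 18.5% of the UMIs of members and 14.3% of those of other hepatoma cells, while mitochondrial genes took 1.73% and 1.70%. When members were chosen again after thinning to 5000 UMIs, 91.2% of the 920 new members had been members before.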

How the data were processed

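Per the labels' protocols, tumours were dissociated and sequenced with DNBelab C4 3′ libraries, beads were filtered with barcodeRanks of DropletUtils, and UMIs were counted with PISA. STAR 2.7.2b and the builds GRCh38 and mm10 are named in the submitters' processing notes, and which build served which step is not given in the sources used here. The deposited values are on a natural log scale. In set 1 each is the natural log of 1 plus UMIs per 10000, which was tested on the values: a UMI total was found for 100% of its cells, and 100% of its values then gave whole UMIs within 0.01. In sets 2 to 6 an unrecorded step had changed the values. All 53528 columns belong to no known sample.

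Members and gene lists were chosen with earlier results of these data known. CPM, ratios and exact conditional Poisson intervals were computed in set 1, with 1 CPM added to both values only for log2 ratios and for counts of genes past 1.5-fold. Shares of cells have exact Clopper-Pearson intervals. Differences of mean value were computed in each set. Cells of a single pooled sample do not replicate a condition, so no p-value is given. The genes named are the 7 choosing genes, the 15 highest and 10 lowest by median difference among those with 1 sign in all 6 sets, up to 4 per list with the most UMIs, and list genes whose scales differ in sign; others were named after their values were seen. On simulated Poisson counts 100 of 100 genes made 2-fold higher and 100 of 100 made lower were recovered, all of at least 10 CPM. None of 1800 unchanged genes was called, and 1925 of 2000 intervals held the true ratio. Poisson counts hold no spread between cells beyond counting, so the simulation checks the calculation only. It does not show how the intervals or calls behave on the real cells. Scrublet (scanpy 1.11.5, on numpy 2.4.6 and scipy 1.17.1) called 91 of 9370 set 1 cells as doublets (0.971%), and these were kept. Promoter sequences are RefSeq's, build GRCm38.p6. Alternatives changed the share taken as members, the choosing genes, the thresholds, the depth, the averaging, the pseudocount, the filter on low values and the fold.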

Additional observations from a re-analysis of the deposited data

How the results depend on the processing

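Hepatoma cells were 64.5% of all cells, 61.1% with their marker mean at 1.5 or more and 48.5% with the immune mean below 0.1. The 565 genes that were lower in set 1 became 909 in the shallowest and 329 in the deepest of 4 depth classes, 848 with means over cells, 213 with 10 CPM added, 865 with none added, 266 among the 811 genes of at least 10 CPM and 219 at 2-fold. The 282 higher genes became 160 at 10 CPM, which is 19.7% of those genes, and 177 at 2-fold. A difference over 0.25 left 87 higher and 4 lower genes in all 6 sets. Fabp1-high cells were 8.98% of members with a mean above 1 and 3.01% above 2. These last alternatives, and those without Fabp1-high cells, were chosen after seeing the data. Spp1 was the only named gene whose called value changed sign, from 0.81 to -0.33 on the log2 scale in the shallowest depth class. Named genes kept their sign in 1297 of 1308 values over the sets and 2231 of 2289 in set 1. Among them are the choosing genes, and the highest and lowest genes, which were picked for having the same sign in every set. The sign of those genes was in part fixed by the choice, so the counts for named genes are descriptions. Lists kept their sign in 252 of 252 values over the sets and 437 of 441 in set 1. The 44 genes with no UMI in 1 class kept their main value where no pseudocount was added. No paired analysis was possible because the sets carry no group or replicate label. Values of sets 2 to 6 have no known depth, Fabp1-high cells of set 6 number 17, and genes under a few CPM rest on few cells.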
